A study of Mus musculus with 4 samples.

Results

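The genes described here are 10 genes of the circadian clock (Per1, Per2, Per3, Cry1, Cry2, Clock, Nr1d1, Nr1d2, Dbp and Ciart), chosen by gene name from 56493 genes in the deposited count table, where all 10 were found. RNA sequencing was done on cells of the wild-type mouse retina that had been sorted and were labelled as retinal ganglion cells. An adeno-associated virus of serotype 2 had been placed in the vitreous a month before a crush of the optic nerve, so both groups carry a vector and an injury. The titles of all 4 libraries share the code NCd8, which the labels do not spell out. Mice of the group with 2 CrAT libraries were given AAV2-CrAT, a vector for carnitine acetyltransferase overexpression, and those of the group with 2 MCS libraries AAV2-MCS. The age and sex of the mice, the number of mice behind a library, the promoter of the vector, what MCS stands for, the time from crush to collection in words and the hour of collection were not found in the labels or protocols.

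The circadian clock is a loop of transcription in which CLOCK and its partner BMAL1 (the product of Arntl) bind E-box sequences and switch on the Per and Cry genes, whose proteins return to the nucleus and block CLOCK and BMAL1. A second loop adds the receptors REV-ERB alpha and beta (Nr1d1 and Nr1d2), which repress Arntl, and the ROR receptors, which activate it. Transcripts of Dbp and Nr1d1 peak near the opposite time of day from those of Arntl, so tissue taken at another hour can show these genes displaced in opposite directions, but need not. The mouse retina holds clocks of its own in several cell types.

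Depth was 24494253 to 27097438 counts a library, and the 10 genes had between 191 and 10925 counts each. Markers of the labelled cell type were scarce. The 16 ganglion cell markers summed to 161 to 451 CPM (counts scaled to depth with TMM factors) and the ganglion cell factor Pou4f1 had 0 to 20 counts, while 15 rod markers summed to 30799 to 56877 CPM. All 15 rod markers were higher in both libraries numbered 1 than in both numbered 2, as were 23.5% of all genes. Lower there were 9 of the 11 amacrine and 10 of the 14 ganglion cell markers tested, as were 24.1% of all genes. The ganglion cell sums were 185 CPM (CrAT 1), 451 CPM (CrAT 2), 161 CPM (MCS 1) and 343 CPM (MCS 2). MCS replicate 1 stood apart in the sum of nuclear retained RNA, at 1462 CPM against 401 to 541 CPM in the other 3 libraries, and in immediate early genes, at 5451 CPM against 2707 to 3388 CPM. The first sum was mostly Malat1, at 1278 CPM in MCS replicate 1 against 307 to 393 CPM elsewhere. Of the 4 nuclear retained RNAs tested, 3 were highest in MCS replicate 1, as were 27.3% of all genes. Meg3 was so only narrowly, and Snhg11 was highest in CrAT replicate 2. Values of a group are given in the order replicate 1, replicate 2. Fewer cells of a type and less RNA per cell cannot be told apart in such bulk samples. Whether replicates are separate animals is not stated, so the p-values rest on a spread between libraries that may be technical.

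None of the 10 genes differed between CrAT and MCS at an adjusted p of 0.05 (edgeR quasi-likelihood test over 19638 genes), where 0% of all genes tested did. Unadjusted p-values under 0.05 were reached by 1 of the 10, Ciart, against 4.15% of all genes, and DESeq2 called none of the 10 and 0.238% of its genes, with Ciart again the 1 member of the 10 under 0.05 unadjusted (0.0382). The log2 fold change, CrAT over MCS, was below 0 for 9 of the 10, with a median of -0.27, where 49.4% of all genes were below 0 and their median was 0.01. Ciart and Cry1, 2 of the 10, had their CrAT libraries under each MCS library, as had 16.6% of all genes, and none of the 10 had them above, as had 15%; 31.6% of all genes separated the groups in either direction. MCS replicate 1 held the highest level of 7 of the 10, against 27.3% of all genes, and CrAT replicate 1 the lowest level of 5, against 21.1% of all genes. The median was -0.03 without MCS replicate 1, -0.54 without MCS replicate 2, -0.16 without CrAT replicate 1 and -0.33 without CrAT replicate 2.

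**Figure D1:**
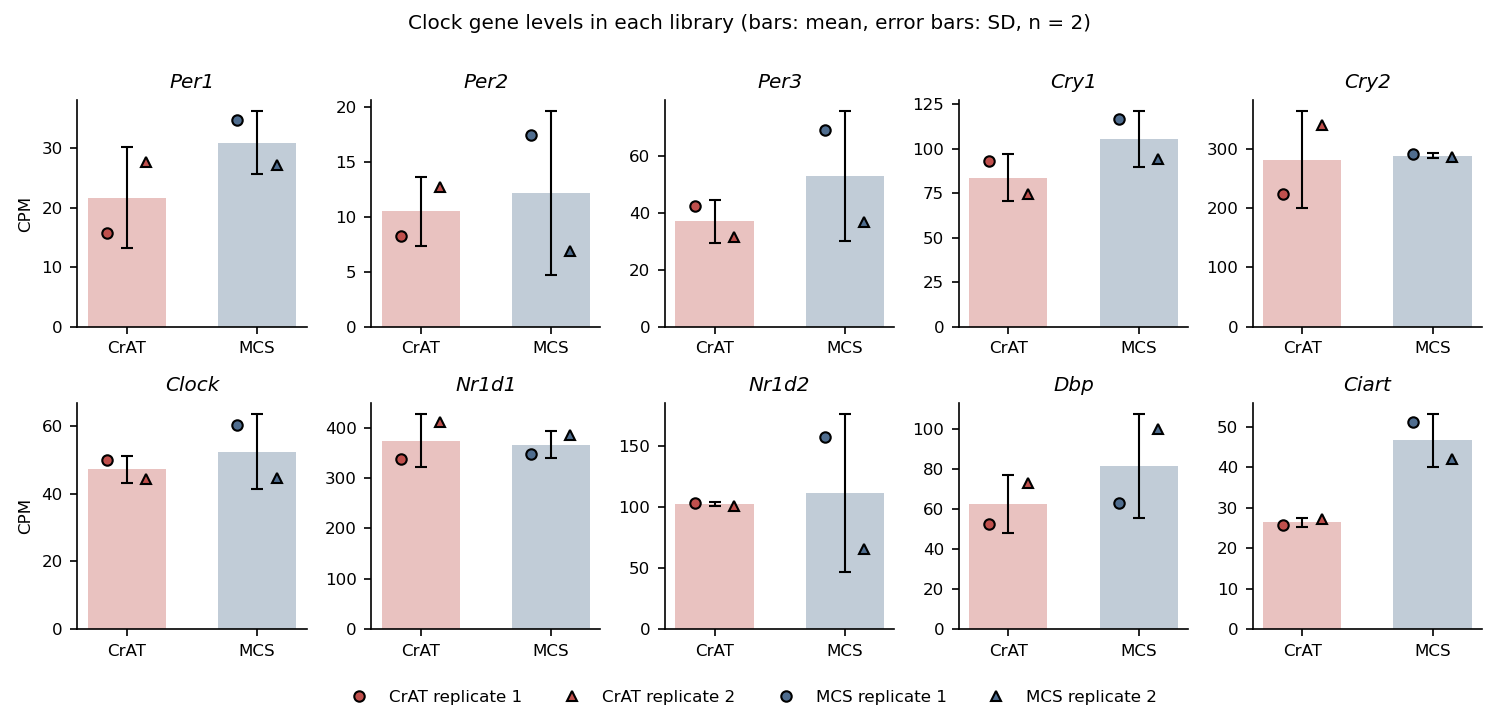
CPM of the 10 clock genes in the 2 CrAT and 2 MCS libraries, with bars for the mean, error bars for the SD (n = 2), circles for replicate 1 and triangles for replicate 2. Ciart has both CrAT points, at 25.7 and 27.2 CPM, well below both MCS points, at 51.3 and 42 CPM, while in most other panels the groups overlap.

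Ciart encodes CHRONO, a repressor of CLOCK and BMAL1 that is itself driven by them. It was at 25.7 and 27.2 CPM in CrAT replicates 1 and 2, and at 51.3 and 42 CPM in MCS replicates 1 and 2. The groups did not overlap, and the CrAT libraries lay close together. The means were 26.4 ± 1.05 CPM for CrAT and 46.7 ± 6.55 CPM for MCS (SD, n = 2 libraries a group), a log2 fold change of -0.82 (SE 0.30), or 1.77-fold higher in MCS. The unadjusted p was 0.0325 and the adjusted p was 1 (edgeR quasi-likelihood test), so the difference did not pass over all genes. Leaving out each library in turn moved the log2 fold change between -0.95 and -0.67. Genes of Mueller cells, the radial glia of the retina, had the same direction, since all 15 listed markers were lower in CrAT, 10 of them with no overlap between the groups (of all genes, 49.4% were lower and 16.6% were lower without overlap), and their summed level was 15840 and 12838 CPM in CrAT against 23699 and 21186 CPM in MCS. Clu, Apoe and Dkk3 were the most abundant of them. Their part in the level of Ciart was not tested.

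Sequence before the start of Ciart is shown because it holds 3 copies of the E-box CACGTG, the site that CLOCK and BMAL1 bind, in the 250 bases before the RefSeq start (build GRCm38.p6, chr3:95882229-95882478, minus strand). Motifs were searched on both strands as CACGTG, as the variant E'-box CACGTT, and as the D-box, the site of DBP and related factors, in the forms TTATGTAA and TTACGTAA. No matches overlapped each other. Capitals mark the matches, and sequences read 5′ to 3′ along the gene, so that CACGTT on the other strand appears as AACGTG.
Ciart: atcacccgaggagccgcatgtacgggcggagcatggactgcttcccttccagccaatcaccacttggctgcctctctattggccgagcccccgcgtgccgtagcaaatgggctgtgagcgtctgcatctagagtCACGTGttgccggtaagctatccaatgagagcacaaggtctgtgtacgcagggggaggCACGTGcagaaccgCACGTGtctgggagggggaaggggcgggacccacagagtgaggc
Cry1, chr10:85185084-85185158, minus strand: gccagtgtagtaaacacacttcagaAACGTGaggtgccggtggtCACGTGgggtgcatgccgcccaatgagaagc
Per3, chr4:151044791-151044895, minus strand: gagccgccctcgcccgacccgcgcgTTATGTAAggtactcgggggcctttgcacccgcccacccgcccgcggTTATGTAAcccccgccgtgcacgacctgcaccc
Nr1d1, chr11:98775378-98775430, minus strand: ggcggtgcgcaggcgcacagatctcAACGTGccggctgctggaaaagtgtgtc

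The table of RefSeq promoters held 9 of the 10 genes with 12 start sites, all but Per2. CACGTG was found before 3 of these 9 genes (Ciart, Cry1 and Per1), and in 6.02% of all 32851 windows of the same length. Genes here are counted over all their starts and the background per window, so the counts and shares are not on the same scale. Windows with 3 or more copies, as at Ciart, made up 0.0609% of all. CACGTT was found before Cry1, Cry2 and Nr1d1 and in 3.85% of windows, TTATGTAA before Per3 alone of the 9 and in 0.819% of windows, and TTACGTAA before none of the 9 and in 0.113% of windows. The 3 copies at Ciart start 116, 58 and 44 bases before the transcription start, and the 2 copies at Per3 start 205 and 158 bases before it. A match is a description of letters, and clock sites farther from these starts were not searched.

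**Figure D2:**
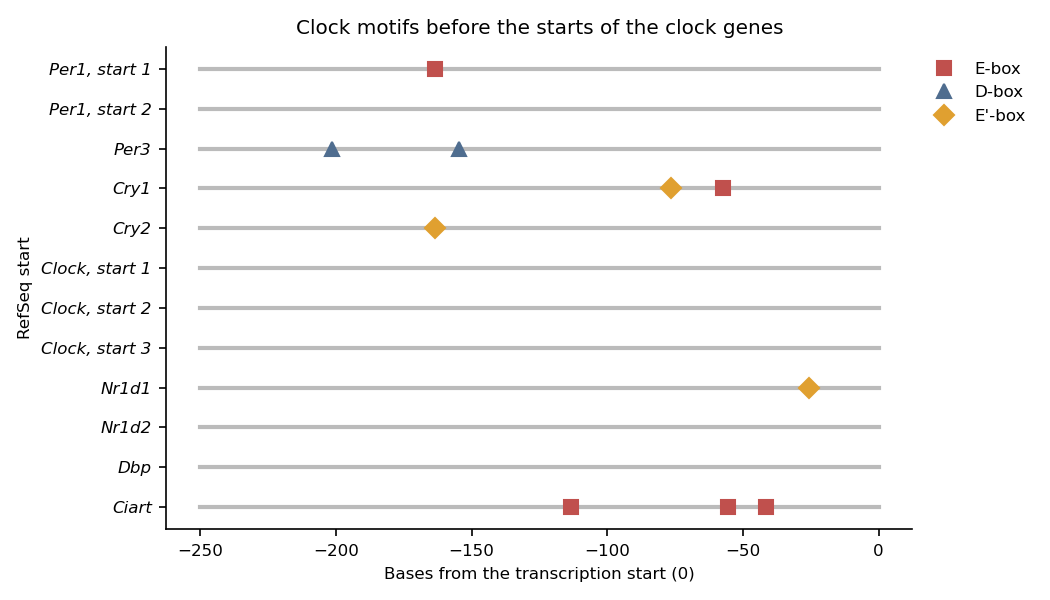
Positions of motif matches in the 250 bases before each RefSeq start of the clock genes, with the start at 0, squares for the E-box, diamonds for the E'-box and triangles for the D-box. Ciart has 3 squares, Per3 has 2 triangles, and the windows of Clock, Nr1d2 and Dbp have no match.

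Clock, the activator, was at 49.9 and 44.4 CPM under CrAT against 60.2 and 44.5 CPM under MCS. Levels in both replicates 2 were nearly equal, and only MCS replicate 1 lay apart. Its log2 fold change was -0.15 (SE 0.30, edgeR adjusted p = 1) and 0.09 without MCS replicate 1. Arntl, the partner of Clock, was at 122.4 CPM (CrAT 1), 97.7 CPM (CrAT 2), 123.1 CPM (MCS 1) and 83.2 CPM (MCS 2), with a log2 fold change of 0.09 (SE 0.32), which turned to -0.08 without CrAT replicate 1 and to -0.16 without MCS replicate 2. Npas2, which can stand in for Clock, was low, at 7.88 and 5.43 CPM with the CrAT vector and 6.76 and 6.41 CPM with MCS, a log2 fold change of 0.01 (SE 0.42) that was -0.04 when scaled by library totals only, -0.28 without CrAT replicate 1 and -0.02 without MCS replicate 2. All 3 were higher in each library numbered 1 than in each library numbered 2, as were 23.5% of all genes. None separated the groups, as 31.6% of all genes did.

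The Period genes encode the repressors that pair with cryptochromes. Per1, which is also induced directly by light signals, stress and glucocorticoids, was at 15.7 and 27.7 CPM under CrAT against 34.7 and 27.2 CPM under MCS. CrAT replicate 1 was the low library, and the other 3 lay within 27.2 to 34.7 CPM. The log2 fold change of Per1 was -0.51 (SE 0.40, edgeR adjusted p = 1) and moved to -0.16 without CrAT replicate 1 and to -0.96 without CrAT replicate 2. Per2 was at 8.29 CPM (CrAT 1), 12.7 CPM (CrAT 2), 17.5 CPM (MCS 1) and 6.92 CPM (MCS 2), so the highest and the lowest library were both MCS. Its log2 fold change of -0.21 (SE 0.55) turned to 0.61 without MCS replicate 1 and to 0.07 without CrAT replicate 1. Per3, whose promoter carries the 2 D-boxes shown above, was at 42.2 and 31.6 CPM with the CrAT vector and 68.9 and 36.7 CPM with MCS. Only MCS replicate 1 stood apart, and the log2 fold change of -0.52 (SE 0.40) was 0.01 without it. Without MCS replicate 2 it was -0.90, with an unadjusted p of 0.0361 and an adjusted p of 0.729 (edgeR).

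Genes that share inducers with Per1 were summed for the same libraries. Of 20 immediate early genes 14 were lower in CrAT, 6 without overlap between the groups, where 49.4% of all genes were lower and 16.6% lower without overlap. The most abundant were Fos, Egr1 and Btg2. The median log2 fold change of this list was -0.22, and 0.05 without MCS replicate 1. Of 12 genes induced by glucocorticoids in many tissues 11 were lower in CrAT, 7 without overlap, against the same shares of all genes, with a median log2 fold change of -0.64. The sum of the latter list, led by the metallothionein Mt1, was 3786 and 2020 CPM under CrAT against 3536 and 3793 CPM under MCS. No gene of either list passed over all genes tested (edgeR), and 3 and 4 of them had an unadjusted p under 0.05, against 4.15% of all genes. The part of such induction in the Per levels was not tested.

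Cryptochromes are the stronger repressors of the loop. Cry1 was at 93.2 CPM (CrAT 1), 74.3 CPM (CrAT 2), 116.5 CPM (MCS 1) and 94.4 CPM (MCS 2). The groups did not overlap, but the higher CrAT library lay just under the lower MCS library. Its log2 fold change of -0.33 (SE 0.29, edgeR adjusted p = 1) kept its sign without each library in turn, between -0.50 and -0.16. Cry2 was at 224.4 and 340.5 CPM with the CrAT vector and 292.1 and 286.4 CPM with MCS. Both MCS libraries fell between the CrAT libraries, so the spread within CrAT was larger than the difference of the means, with a log2 fold change of -0.03 (SE 0.32) that was 0.24 without CrAT replicate 1. Gsk3b, a kinase that acts on several clock proteins, was at 55.3 and 62.8 CPM against 112.4 and 89.6 CPM, a log2 fold change of -0.77 (SE 0.29) with an unadjusted p of 0.0335 and an adjusted p of 1 (edgeR).

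Nr1d1 was the most abundant of the 10 per length. Its level was 337.3 CPM (CrAT 1), 412.1 CPM (CrAT 2), 347.4 CPM (MCS 1) and 385.2 CPM (MCS 2). The highest library was 1.22 times the lowest, the narrowest range of the 10, and the groups overlapped fully. The log2 fold change of 0.03 (SE 0.29, edgeR adjusted p = 1) was -0.02 with library totals only, -0.10 without CrAT replicate 2 and -0.04 without MCS replicate 1. Exons of Nr1d1 share 263 bases, or 8.55% of their length, with Thra on the other strand, and this kit does not mark strand. Thra had 1868 and 3235 counts in CrAT and 2176 and 5604 in MCS, higher in both libraries numbered 2, as was Nr1d1. Nr1d2 was at 103.6 and 101.1 CPM with the CrAT vector and 157.5 and 66 CPM with MCS. The CrAT libraries were nearly equal and lay between the MCS libraries, so its log2 fold change of -0.13 (SE 0.44) was 0.64 without MCS replicate 1 and -0.62 without MCS replicate 2.

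The ROR receptors compete with REV-ERB at the same sites. Rora was at 162.4 and 131.4 CPM under CrAT against 241.6 and 142 CPM under MCS, with a log2 fold change of -0.38 (SE 0.35) that was 0.05 without MCS replicate 1. Rorb, which is enriched in the retina, was at 157 CPM (CrAT 1), 115.8 CPM (CrAT 2), 350 CPM (MCS 1) and 117.7 CPM (MCS 2), and its log2 fold change of -0.78 (SE 0.53) was 0.22 without MCS replicate 1. Neither passed (edgeR adjusted p = 1).

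Dbp, a D-box activator that follows the rhythm of CLOCK and BMAL1 closely in many tissues, was at 52.4 and 72.9 CPM under CrAT against 62.9 and 99.8 CPM under MCS. Both libraries numbered 2 lay above both libraries numbered 1, and the groups overlapped. Its log2 fold change was -0.38 (SE 0.35, edgeR adjusted p = 1) and ranged from -0.67 to -0.0029 with each library left out in turn. Exons of Dbp share 539 bases, or 18% of their length, with Sphk2 on the other strand, and reads there cannot be told apart. Sphk2 had 948 and 1247 counts in CrAT and 1206 and 1770 in MCS, also higher in both libraries numbered 2. Of the related PAR bZIP factors, Tef was at 193.9 CPM (CrAT 1), 246.7 CPM (CrAT 2), 216.8 CPM (MCS 1) and 215.5 CPM (MCS 2), with a log2 fold change of 0.03 (SE 0.29; -0.02 with library totals only and -0.14 without CrAT replicate 2). Hlf was at 111.2 and 104.4 CPM against 133 and 106 CPM, with -0.15 (SE 0.28; 0.03 without MCS replicate 1). Nfil3, the repressor that competes at D-boxes, was at 29.5 and 34.7 CPM with the CrAT vector and 16.1 and 23.2 CPM with MCS, a log2 fold change of 0.71 (SE 0.35) without overlap and with an unadjusted p of 0.0865.

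Of 21 further clock genes (activators, ROR receptors, D-box factors, repressors, kinases and ligases) 12 were higher and 9 lower in CrAT, with a median log2 fold change of 0.03, and none passed over all genes tested (edgeR). Without overlap of the groups, 3 of them were lower in CrAT (Bhlhe41, Gsk3b and Usp2) and 5 were higher (Nfil3, Btrc, Nono, Bhlhe40 and Timeless), against 16.6% and 15% of all genes. Bhlhe41, which encodes DEC2, an E-box repressor, was at 10.6 and 9.92 CPM under CrAT against 28.8 and 17.3 CPM under MCS, a log2 fold change of -1.16 (SE 0.40) with an unadjusted p of 0.0258 and an adjusted p of 1 (edgeR). Its log2 fold change stayed between -1.48 and -0.75 with each library left out. Exons of Bhlhe41 share 19% of their length with the unclassified transcript Gm43909 on the other strand, which had 28 to 56 counts. Bhlhe40, which encodes the related repressor DEC1, was at 150.7 CPM (CrAT 1), 159.8 CPM (CrAT 2), 143.2 CPM (MCS 1) and 95.9 CPM (MCS 2), with a log2 fold change of 0.38 (SE 0.31), opposite in sign to Bhlhe41, that ranged from 0.12 to 0.70 with each library left out. Btrc, a ligase subunit that marks PER proteins for degradation, had 0.65 (SE 0.29), the RNA-binding protein Nono 0.37 (SE 0.28), the replication fork protein gene Timeless 0.28 (SE 0.40) and the ubiquitin protease Usp2 -0.40 (SE 0.27). The promoter window of Bhlhe41 holds 1 CACGTG, shown because Bhlhe41 and Ciart had the lowest log2 fold changes of the E-box repressors named here. Of the further clock genes, 18 had a promoter entry, and 3 of these held CACGTG (Bhlhe41, Cipc and Tef), beside 6.02% of all windows. Here too genes are counted over all their starts and the background per window. The log2 fold change of Tef was 0.03, and that of Cipc lay between -0.13 and 0.70 with each library left out. The part of the motif in these levels was not tested.
Bhlhe41, chr6:145865543-145865598, minus strand: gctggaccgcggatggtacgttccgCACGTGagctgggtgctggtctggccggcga

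**Figure D3:**
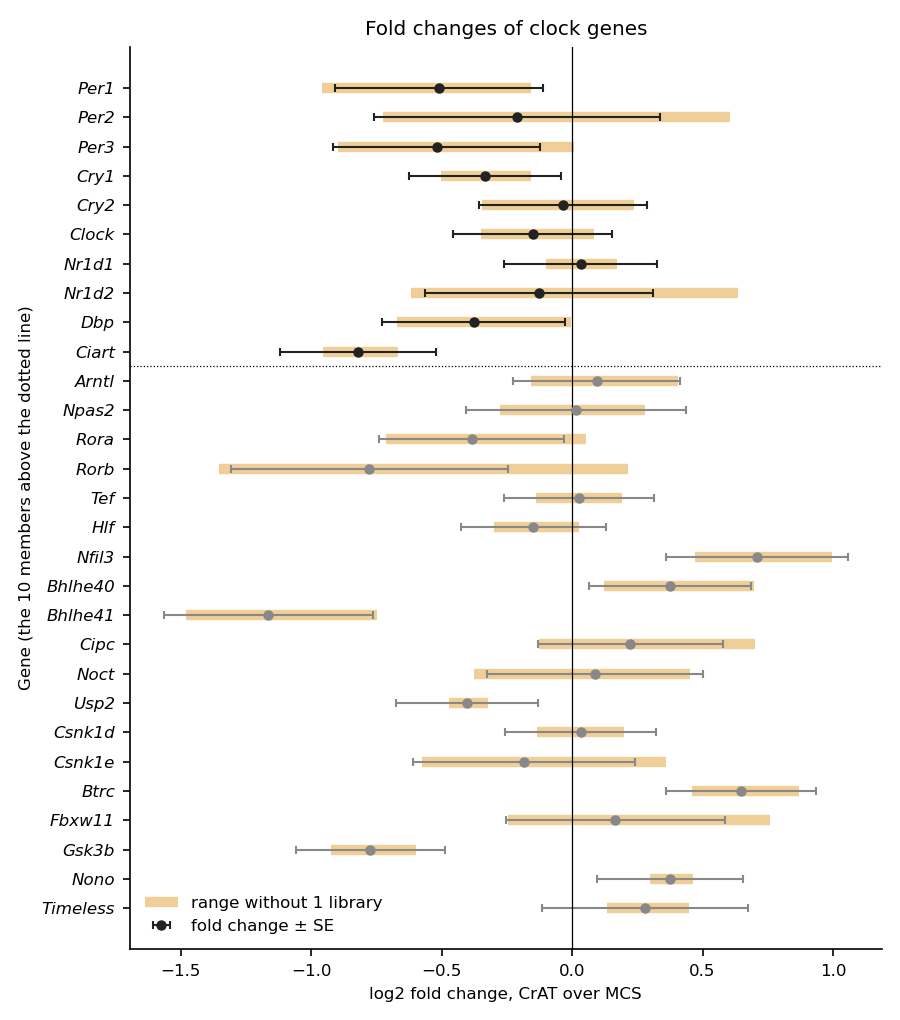
Log2 fold change, CrAT over MCS, of the 10 clock genes and of further clock genes (points, with SE as bars) and the range when each library is left out in turn (wide bands); Arntl2 and Fbxl21, with few counts, are not drawn. The bands of Ciart (-0.95 to -0.67) and Bhlhe41 (-1.48 to -0.75) stay below 0, while those of Per2 and Nr1d2 span 0 widely.

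Between the 10 genes levels were compared as FPKM, which is per kilobase of exon. Nr1d1 was highest, at 120.4 ± 12.2 FPKM over the 4 libraries (SD, n = 4), and its range did not reach that of Cry2, next at 45.3 ± 7.94 FPKM. Cry1 at 28.3 ± 5.50, Dbp at 24.1 ± 7.22, Nr1d2 at 19.8 ± 7.13 and Ciart at 16.2 ± 5.77 FPKM followed, and each neighbouring pair from Cry2 to Ciart overlapped in range. Per1 at 4.69 ± 1.47, Per3 at 4.67 ± 1.79 and Clock at 3.62 ± 0.570 FPKM overlapped in turn, all below the lowest Ciart library. Per2 was lowest, at 1.94 ± 0.835 FPKM, below the range of Clock. Across libraries Per2 varied most, its highest library being 2.52 times its lowest, followed by Nr1d2 at 2.39 times and Per1 at 2.21 times.

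Genes whose profiles over the 4 libraries lay closest to each member were sought among the 10 and the 21 further clock genes, by the mean absolute difference of log2 CPM after centring each gene on its mean. Ciart was nearest to Gsk3b (0.04), Clock to Hlf (0.05), Nr1d1 to Tef (0.05), Per3 to Rora (0.07) and Cry2 to Tef (0.08). Cry1 was nearest to Clock (0.10), Dbp to Csnk1e (0.12), Nr1d2 to Cipc (0.18), Per2 to Nr1d2 (0.19) and Per1 to Gsk3b (0.21). With 4 libraries these are descriptions of likeness alone.

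**Figure D4:**
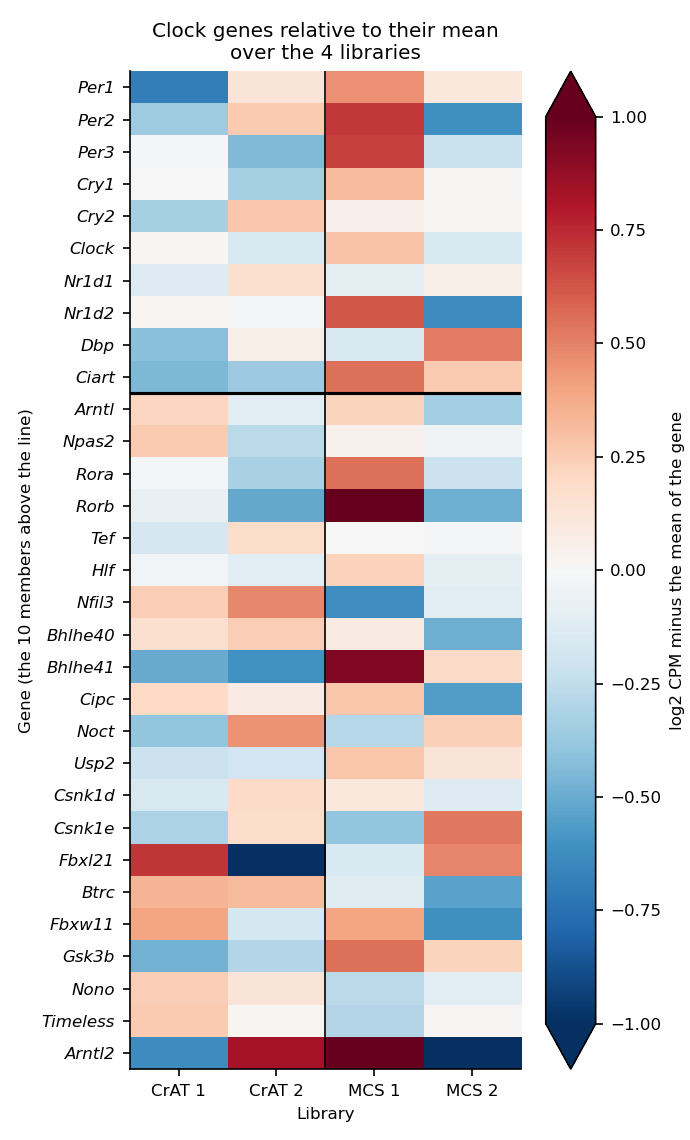
Log2 CPM of the 10 clock genes (above the line) and 21 further clock genes minus the mean of each gene over the 4 libraries, with red for higher and blue for lower. MCS replicate 1 is the highest library for 7 of the 10. Dbp and Nr1d1 are lower in both libraries numbered 1, and Per3, Clock and Nr1d2 are higher there.

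Whether the libraries could differ in clock phase was examined through ratios to Arntl, since a ratio within a library does not depend on depth or scaling. Dbp and Nr1d1 are the genes introduced above as opposite in phase to Arntl. The other ratios are given as description, and Cry1 is grouped with Arntl in the sets below. The ratio of Dbp to Arntl CPM was 0.428 and 0.746 in CrAT replicates 1 and 2 and 0.511 and 1.20 in MCS replicates 1 and 2. It was lower in both libraries numbered 1 than in both numbered 2, and the groups overlapped. The ratio of Nr1d1 to Arntl followed the same order of numbers, at 2.76 and 4.22 in CrAT and 2.82 and 4.63 in MCS. Cry2 to Arntl did so too, at 1.83 and 3.48 in CrAT and 2.37 and 3.44 in MCS. Per1 to Arntl did so narrowly, at 0.128 and 0.284 in CrAT and 0.282 and 0.327 in MCS. Nfil3 to Arntl had this order as well, at 0.241 and 0.355 in CrAT and 0.131 and 0.279 in MCS. Arntl, the shared denominator, was itself higher in both libraries numbered 1, which lowers every ratio there. Ciart, Per3 and Cry1 to Arntl separated the groups instead. The ratio of Ciart was 0.210 and 0.278 in CrAT and 0.417 and 0.505 in MCS. That of Per3 was 0.345 and 0.323 in CrAT and 0.560 and 0.441 in MCS, and that of Cry1 was 0.761 and 0.760 in CrAT and 0.946 and 1.13 in MCS. Among the further clock genes Bhlhe41 to Arntl was also lower in both CrAT libraries, at 0.0869 and 0.102 against 0.234 and 0.208. Per2 to Arntl followed neither, at 0.0678 and 0.130 in CrAT and 0.142 and 0.0832 in MCS. Nr1d2 to Arntl also followed neither, at 0.846 and 1.03 in CrAT and 1.28 and 0.793 in MCS. The level of Nr1d2, the other REV-ERB gene, was higher in both libraries numbered 1, opposite to Nr1d1. Levels of Per3 and Hlf were also higher in both libraries numbered 1. The share of all genes whose ratio to Arntl splits either way was not counted.

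**Figure D5:**
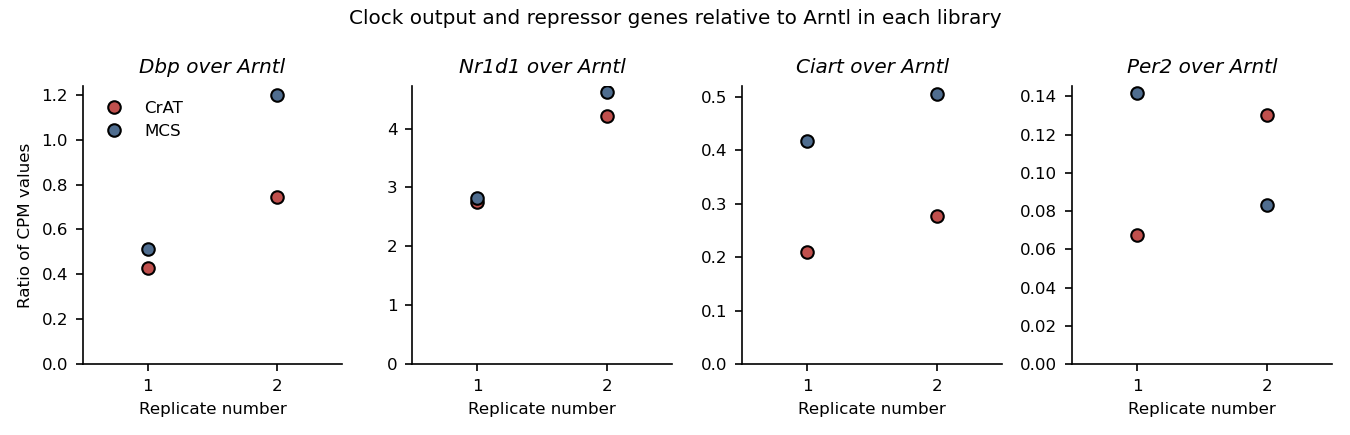
Ratio of the CPM of Dbp, Nr1d1, Ciart and Per2 to that of Arntl by replicate number, with 1 point per library, red for CrAT and blue for MCS. Dbp and Nr1d1 ratios are higher in both libraries numbered 2, and Ciart ratios are higher in both MCS libraries.

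The same comparison was made over sets of genes. The mean log2 CPM of Dbp, Ciart, Nr1d1 and Nr1d2 minus that of Arntl, Npas2, Clock and Cry1 was 0.84 and 1.38 in CrAT and 1.23 and 1.39 in MCS. CrAT minus MCS was -0.19, less than the pooled SD between replicates of 0.28, and it lay between -0.46 and 0.08 with each library left out. Both libraries numbered 1 lay below both numbered 2, and number 2 minus number 1 was 0.35. Not all genes of the set had this order. Dbp and Nr1d1 were higher in number 2, Nr1d2 was higher in number 1, and Ciart overlapped. Among the subtracted genes Arntl, Npas2 and Clock were higher in number 1, which lowers the value there, and Cry1 overlapped. How often sets of other genes split in this way was not counted. For Per1, Per2 and Per3 against the same 4 genes the values were -1.38 and -0.70 in CrAT and -0.50 and -1.02 in MCS, a difference of -0.28 with a pooled SD of 0.43 and a range of -0.62 to 0.06 with each library left out. The numbers overlapped for this set, and number 2 minus number 1 was 0.08. Without Per1 in the set they overlapped too, with CrAT minus MCS at -0.19 and number 2 minus number 1 at -0.17. No test was made of these sets, and 2 libraries against 2 cannot give a two-sided exact permutation p below 0.333.

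By replicate number, 5 of the 10 genes had both libraries numbered 1 on one side of both libraries numbered 2, against 47.6% of all genes. Per3, Clock and Nr1d2 were higher in number 1, as were 23.5% of all genes, and Dbp and Nr1d1 were higher in number 2, as were 24.1%. Rod markers were higher in number 1 for 15 of 15 genes, as given above. Amacrine markers were higher in number 2 for 9 of 11 and ganglion cell markers for 10 of 14, so the RNA of these markers moved with the same numbers. The parts of collection time and of cell makeup in these values were not tested.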

How the data were processed

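Per the labels' protocols, libraries came from a Qiagen micro RNA extraction and SMART-seq v4 cDNA synthesis, which does not mark strand. The aligner STAR (2.7.2b) and builds mm10 and GRCm38.p6 stand in the submitters' processing notes; the counter and annotation release are not stated there. The authors deposited counts per gene, rounded from estimated counts: the deposited FPKM times exon length and a column total returned them within 0.5, and 41.9% to 43.2% of values above 0 were not whole within 0.02. They were tested as deposited. The deposited FPKM values were used for levels between genes. The tables name no build, and 1402 of 51898 shared gene identifiers had the same start and end as in GRCm38 (GENCODE M21), so no coordinate of the tables is printed; sequences are from RefSeq, GRCm38.p6. Each table held 2 columns of samples other than these, 4 in all, which were not used.

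Groups and replicate numbers came from sample titles. Genes were kept by filterByExpr (19638), scaled by TMM and tested with edgeR 4.0.16 (two-sided quasi-likelihood F test, robust, group as the term, 2 residual degrees of freedom; R 4.3.3), adjusted by Benjamini-Hochberg over all genes kept. SE is the absolute log2 fold change over the square root of F. Log2 CPM used a prior count of 2. DESeq2 1.42.0 was an alternative. In simulated data of the same design, with 50 genes changed at each size, the edgeR procedure recovered 0% of 2-fold and 36% of 4-fold changes. It recovered 84% of 16-fold and 100% of 64-fold changes, and called 3 unchanged genes. Changes of about 2-fold were thus not expected to pass here. The members and lists were chosen with earlier results of these data known. Named are all 10 members, further clock genes of 1 list (some genes of it are not reported here), up to 3 most abundant genes of other lists, and Pou4f1. Per-library floors of 3 counts lay at 0.109 to 0.126 CPM and cover counting error only.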

Additional observations from a re-analysis of the deposited data

How the results depend on the processing

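None of the 10 genes and none of the 21 further clock genes passed an adjusted p of 0.05 under any alternative run: DESeq2 size factors in edgeR, library totals only, no filter on low counts, DESeq2, a replicate block, or each library left out. With 2 libraries a group few differences can pass, so this says nothing about stability. Over all genes edgeR called 0 (815 at an unadjusted p under 0.05), 2 without a filter on low counts and 49 in DESeq2 (967 at an unadjusted p under 0.05). Among the 10 genes, the direction of the log2 fold change held in 48 of 50 other settings, the exceptions being Nr1d1 with library totals only (-0.018) and Nr1d2 with the replicate block (0.0040). Npas2 was -0.040 and Tef -0.023 with library totals only, and Npas2 was -0.0081 with the replicate block. With 1 library left out it turned in 8 of 40. The ranges then were -0.73 to 0.61 for Per2, -0.90 to 0.0086 for Per3, -0.35 to 0.24 for Cry2, -0.35 to 0.085 for Clock, -0.10 to 0.17 for Nr1d1, -0.62 to 0.64 for Nr1d2, -0.16 to 0.41 for Arntl, -0.28 to 0.28 for Npas2, -0.71 to 0.052 for Rora, -1.35 to 0.22 for Rorb, -0.14 to 0.19 for Tef and -0.30 to 0.027 for Hlf; the lone library of a group is then assumed to vary like the other group. The replicate block moved no call, and genes at an unadjusted p under 0.05 numbered 1922 with it. Same-numbered libraries deviated together from their group means (r = 0.39 across 19638 genes, which are not independent), but with 2 pairs and no label that says so, the numbers are not taken as pairs. The cause of the turns was not tested.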

Other observations

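Outside the clock itself, the list of genes with a daily rhythm in the rodent retina had 3 members that were tested. Drd4, the dopamine receptor of photoreceptors, was at 204 and 235.3 CPM under CrAT against 237.2 and 258.4 CPM under MCS, so the higher CrAT library lay just below the lower MCS library. Adcy1, an adenylyl cyclase, was at 59.9 and 32 CPM under CrAT against 50.03 and 62.1 CPM under MCS. Ppargc1a, a coactivator of mitochondrial genes, was at 40.3 and 31.2 CPM against 46 and 27.7 CPM. Aanat, which makes the precursor of melatonin, had 0 counts in all 4 libraries, which allows up to 0.109 to 0.126 CPM. None of the 3 passed over all genes tested (edgeR adjusted p = 1).

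Temperature is a known entraining signal of clocks outside the brain. For 8 listed genes of cold-inducible RNA-binding proteins and of heat shock proteins the median log2 fold change was 0.09. Of these, 5 were higher and 3 lower under CrAT, 3 of the higher ones without overlap of the groups, as were 15% of all genes. The cold-inducible RNA-binding protein gene Cirbp was at 425.2 and 442.5 CPM under CrAT against 343.6 and 515.5 CPM under MCS, and the chaperone gene Hspa8 at 2174 and 2599 CPM against 1595 and 2000 CPM. Hsp90aa1, another chaperone gene, was at 819 and 613.8 CPM under CrAT against 735.3 and 706.8 CPM under MCS, a log2 fold change of -0.01. None passed (edgeR adjusted p = 1).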
